A study of Mus musculus with 9 samples.

Results

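Levels of 10 genes of the extracellular matrix of muscle were followed across injured young and old tibialis anterior muscle. They encode the chains of collagen VI (Col6a1, Col6a2, Col6a3), collagens XII and XIV (Col12a1, Col14a1), and proteins of elastic fibres and microfibrils (Eln, Fbn1, Fbn2, Mfap5, Fbln1). The genes were chosen by name, with earlier results of these data known. Each was found by its Ensembl identifier among the 54532 genes of the count table. All 10 passed the filter on low counts in each comparison. C57/BL6J mice of 4 months (young) or 24 months (old) had the muscle injured with barium chloride, which destroys fibres and starts regeneration. Muscles of 1 old group then had 3 injections of recombinant METRNL protein (old rMETRNL), and both other groups had PBS (young PBS, old PBS). The dose was 0.1 ug in the results of the study and 0.1 ng in its methods. Bulk RNA was sequenced in 3 libraries per group, numbered 1 to 3 except old PBS, whose numbers are 2, 3 and 4. The study describes whole muscle taken at day 8, whereas the labels describe a digested cell suspension and the design text gives day 4. No uninjured muscle was among these libraries, so every group shares the injury.

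Collagen VI is assembled from alpha1, alpha2 and alpha3 chains into beaded filaments next to the basement membrane of muscle fibres, and mutations in any of its main genes cause muscular dystrophies in humans. Collagens XII and XIV belong to the FACIT family, whose members lie on the surface of collagen I fibrils. Fibrillins (Fbn1, Fbn2) form microfibrils that bind latent TGF-beta and serve as the scaffold on which elastin (Eln) is laid down. MFAP5 binds fibrillin microfibrils, and fibulin 1 (Fbln1) binds fibronectin, basement membranes and elastic fibres. In muscle these genes are expressed mostly by fibro-adipogenic progenitors and other connective tissue cells.

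Levels are given as CPM, counts scaled to library size, with edgeR's TMM factors over all 9 libraries. Total counts ran from 16238700 to 22522560, and a count of 3 was worth 0.131 to 0.202 CPM, so 9 of the 10 genes were far above that floor in every library and only Fbn2 reached it. The libraries of old PBS stood farther apart than those of the other groups. Chi-square per degree of freedom between old PBS libraries was 51.2 to 169, against 10.9 to 45.4 within the other groups. The 10 mature muscle fibre markers summed to 74704 to 136652 CPM, so the defining markers of muscle were present. Markers of new muscle fibres summed to 4932 CPM in old PBS 3 and to 1386 and 656 CPM in old PBS 2 and 4. Brain markers summed to 48.2 to 117 CPM in old PBS and to at most 4.44 CPM elsewhere, with Mobp, Snap25, Gfap, Mog, Syt1 and Nefl at 0 in at least 1 library. The part of these in any result was not tested. Nothing in the labels says that the libraries of a group came from separate mice, so p-values measure only the spread between libraries.

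In old PBS muscle the means of 9 of the 10 genes lay below those of young PBS muscle, and in old rMETRNL muscle the means of all 10 lay above those of old PBS muscle. The median log2 fold change of the 10 genes was -0.74 for age and 0.86 for the protein, against 0.01 and -0.01 over all genes tested. The median for old rMETRNL against young PBS was 0.13. Without old PBS 3 the medians were -1.11 for age and 1.23 for the protein, and without old PBS 4 they were -0.52 and 0.59. None of the 30 gene tests passed an adjusted p of 0.05 by edgeR's quasi-likelihood test, so these are directions of means and not called changes. Old PBS 4 had the lowest level of all 9 libraries for 8 genes and old PBS 2 for the remaining 2, while old PBS 3 was the highest of its group for 9 genes. Old rMETRNL 1 held the highest level of 7 genes and young PBS 3 that of 3. The 10 genes took 0.0756% to 0.226% of all counts in old PBS, 0.194% to 0.327% in old rMETRNL and 0.205% to 0.364% in young PBS. In bulk RNA, fewer cells of a type and less RNA per cell cannot be told apart.

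**Figure D1:**
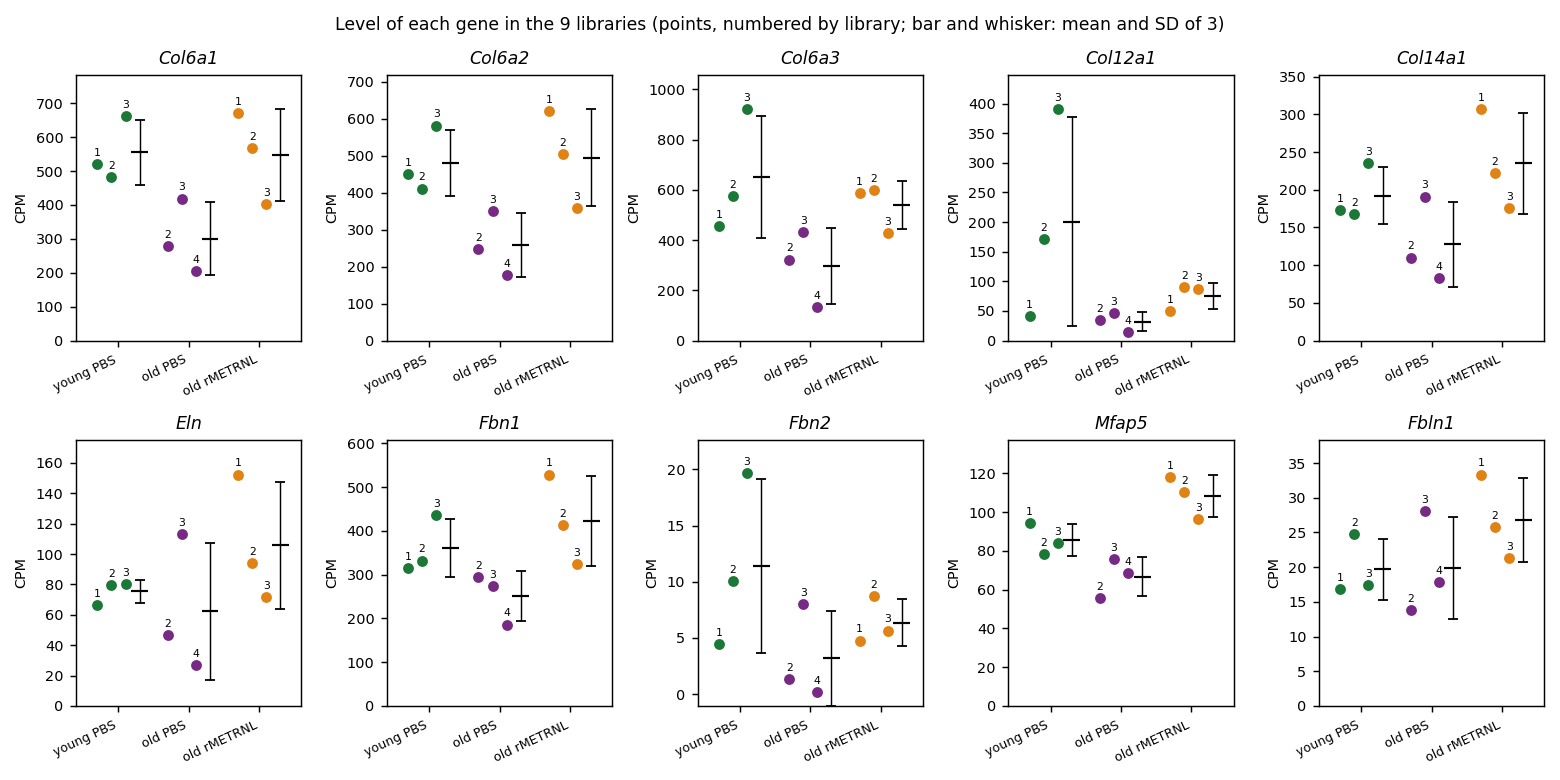
Level in CPM (vertical axis, linear) of each of the 10 genes in young PBS, old PBS and old rMETRNL muscle, with 1 point per library, numbered as in the labels, and the mean and SD of 3 libraries beside them. Old PBS 4 lies lowest for 8 genes, and old PBS 3 lies above old PBS 2 and 4 for 9 genes.

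The 3 collagen VI chains were among the most abundant of the 10 genes. Col6a1 (ENSMUSG00000001119, alpha1 chain; GRCm38 chr10:76708792-76726168, minus strand) stood at 521, 482 and 662 CPM in young PBS, 278, 419 and 205 CPM in old PBS and 671, 567 and 402 CPM in old rMETRNL. Every old PBS library lay below every young PBS library, but old PBS 3 lay above old rMETRNL 3. The log2 fold change was -0.89 ± 0.29 (SE) for old PBS against young PBS (edgeR, adjusted p = 0.619), 0.86 ± 0.31 for old rMETRNL against old PBS (adjusted p = 0.500) and -0.02 ± 0.19 for old rMETRNL against young PBS (adjusted p = 0.9996). Col6a2 (ENSMUSG00000020241, alpha2 chain; chr10:76595762-76623630, minus strand) stood at 451, 411 and 582 CPM in young PBS, 248, 351 and 177 CPM in old PBS and 620, 505 and 359 CPM in old rMETRNL. Its old PBS libraries lay below all 6 others, by a narrow margin between old PBS 3 and old rMETRNL 3. The same 3 comparisons gave -0.90 ± 0.29 (adjusted p = 0.574), 0.93 ± 0.31 (adjusted p = 0.433) and 0.04 ± 0.20 (adjusted p = 0.9996).

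Col6a3 (ENSMUSG00000048126, alpha3 chain; chr1:90765923-90843971, minus strand) ranged more widely than Col6a1 and Col6a2 within both PBS groups, but not within old rMETRNL. In old rMETRNL its SD was 17.8% of the mean, against 24.8% for Col6a1 and 26.4% for Col6a2. Col6a3 stood at 455, 577 and 921 CPM in young PBS, 323, 432 and 135 CPM in old PBS and 589, 600 and 428 CPM in old rMETRNL. Old PBS lay below young PBS in every library, and old PBS 3 passed old rMETRNL 3 by a small margin. Its log2 fold changes were -1.13 ± 0.43 (edgeR, adjusted p = 0.748), 0.86 ± 0.38 (adjusted p = 0.630) and -0.27 ± 0.23 (adjusted p = 0.9996).

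Col6a1 and Col6a2 moved almost as 1 gene. The ratio of Col6a2 to Col6a1 counts stayed between 0.838 and 0.925 over the 9 libraries, and the root mean square difference of their centred log2 CPM was 0.04. Col6a3 differed from Col6a1 by 0.30 on that measure. The Col6a3 to Col6a1 ratio ran from 66.0% in old PBS 4 to 139% in young PBS 3. Col6a1 and Col6a2 are neighbours on chromosome 10, on the same strand, with 85161 bases and 1 annotated gene between them, whereas Col6a3 is on chromosome 1.

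The sequence upstream of the start of each chain gene is shown because the 3 genes make 1 protein and their levels were followed together. RefSeq windows (GRCm38.p6) were found for 5 of the 10 genes, and the 250 bases before each start were searched on both strands for the AP-1 motif TGANTCA, the box TATAAA, the GC box motif GGGCGG, the TEAD motif GGAATG and the repeat unit CCCTCCC, the last chosen after the sequences were seen. Capitals mark matches. Bases that the gene annotation places in an exon are left out, which shortens Col6a1 by 124 bases, and for Col6a2 the start farther upstream is used.
Col6a1 (chr10:76726169-76726294, minus strand): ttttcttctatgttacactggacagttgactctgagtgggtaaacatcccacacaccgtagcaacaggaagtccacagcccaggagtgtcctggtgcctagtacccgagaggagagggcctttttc
Col6a2 (chr10:76623631-76623880, minus strand): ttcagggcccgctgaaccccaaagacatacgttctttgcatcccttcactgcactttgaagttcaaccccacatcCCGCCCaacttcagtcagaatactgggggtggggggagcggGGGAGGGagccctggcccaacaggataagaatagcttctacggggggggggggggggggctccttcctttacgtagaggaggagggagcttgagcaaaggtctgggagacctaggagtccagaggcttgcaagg
Col6a3 (chr1:90843972-90844221, minus strand): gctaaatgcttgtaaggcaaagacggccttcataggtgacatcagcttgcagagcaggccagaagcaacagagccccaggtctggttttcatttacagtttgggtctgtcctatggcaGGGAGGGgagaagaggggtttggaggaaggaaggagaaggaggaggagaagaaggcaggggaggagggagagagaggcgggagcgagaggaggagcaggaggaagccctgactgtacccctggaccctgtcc
The Col6a1 window held 1 TGANTCA match, 90 bases before the RefSeq start, and 5 matches to CCCTCCC, some overlapping, all in the bases left out here. In the windows shown, Col6a2 held 1 match each to GGGCGG and CCCTCCC, and Col6a3 held 1 to CCCTCCC. The other RefSeq start of Col6a2 had GGAATG 115 bases before it, GGGCGG at 67, 15 and 11, and CCCTCCC at 152 and 128. Of 32851 windows of the same length, 6.75% held TGANTCA, 12.4% TATAAA, 32.7% GGGCGG, 12.6% GGAATG and 19.7% CCCTCCC. Only CCCTCCC was found in all 3 windows. It was chosen after the sequences were seen, so this is a description and not a test.

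Col12a1 had the lowest log2 fold change of the 10 genes for age by edgeR and the largest spread relative to its mean in young muscle. By limma-trend Fbn2 was lower (-2.67 against -2.27), and so it was by edgeR without old PBS 3 (-3.91 against -3.02). Col12a1 (ENSMUSG00000032332, collagen XII; chr9:79598991-79718831, minus strand) stood at 41.4, 171 and 390 CPM in young PBS, 34.7, 46.7 and 15.2 CPM in old PBS and 50.4, 90.0 and 86.4 CPM in old rMETRNL. Young PBS 2 and 3 lay above all 7 other libraries, whereas young PBS 1 fell inside the old PBS range. Each old rMETRNL library lay above each old PBS library. The log2 fold change was -2.64 ± 0.73 for age (edgeR, adjusted p = 0.405), 1.22 ± 0.38 for the protein (adjusted p = 0.406) and -1.41 ± 0.56 for old rMETRNL against young PBS (adjusted p = 0.9996). Without young PBS 3 the age value was -1.72 and that for old rMETRNL against young PBS was -0.49. DESeq2 called the difference between old rMETRNL and old PBS (adjusted p = 0.0435) and did not call age (adjusted p = 0.158). Tendon expresses collagen XII, and the 10 tendon markers summed to 367, 657 and 776 CPM in young PBS 1, 2 and 3, to 261 to 347 CPM in old PBS and to 435 to 488 CPM in old rMETRNL, all 10 being detected in every library. For age 7 of those markers were lower and 3 higher, with 5 lower at an unadjusted p under 0.05. For the protein 8 were higher and 2 lower, with 4 higher and 1 lower at an unadjusted p under 0.05. DESeq2 called Tnmd, Thbs4 and Kera in both comparisons, and edgeR called none. Over all genes with an adjusted p, DESeq2 called 265 of 18738 for age and 357 of 19436 for the protein. The part of tendon in the Col12a1 values was not tested.

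Col14a1 (ENSMUSG00000022371, collagen XIV; chr15:55307750-55520803, plus strand) was steadier than Col12a1 in young PBS, with an SD of 19.6% of the mean against 87.8%. The old groups differed less, with 44.1% against 49.5% in old PBS and 28.3% against 28.9% in old rMETRNL. Col14a1 stood at 173, 168 and 235 CPM in young PBS, 110, 191 and 82.5 CPM in old PBS and 307, 222 and 176 CPM in old rMETRNL. Old PBS 3 fell inside the range of both other groups, and old PBS 2 and 4 lay below all 7 other libraries. The log2 fold change was -0.59 ± 0.31 (edgeR, adjusted p = 0.959) for age, 0.87 ± 0.33 (adjusted p = 0.538) for the protein and 0.29 ± 0.20 (adjusted p = 0.9996) for old rMETRNL against young PBS. The pattern of Col14a1 was nearest to that of Col6a2 among the 10 genes, with a root mean square difference of 0.15, and that of Col12a1 was nearest to Col6a3, at 0.76.

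Among the microfibril genes, Fbn1 was the main fibrillin gene in all libraries. Fbn1 (ENSMUSG00000027204; chr2:125300594-125507993, minus strand) stood at 314, 332 and 437 CPM in young PBS, 295, 273 and 186 CPM in old PBS and 529, 414 and 325 CPM in old rMETRNL. Old PBS lay below both other groups without overlap. Its log2 fold changes were -0.52 ± 0.24 (edgeR, adjusted p = 0.880), 0.75 ± 0.26 (adjusted p = 0.482) and 0.23 ± 0.19 (adjusted p = 0.9996) for the 3 comparisons in the same order. Fbn2 (ENSMUSG00000024598), the fibrillin best known from development, was low, at 4.45, 10.1 and 19.7 CPM in young PBS, 1.35, 8.04 and 0.189 CPM in old PBS and 4.76, 8.71 and 5.65 CPM in old rMETRNL. Old PBS 4 held 3 counts of Fbn2, which is the floor, while old PBS 3 held 184, and the groups overlapped. Fbn2 gave -1.79 ± 0.95 (edgeR, adjusted p = 0.953), 0.95 ± 0.86 (adjusted p = 0.796) and -0.84 ± 0.42 (adjusted p = 0.9996). In 7 of the 10 genes (Fbn2, the collagen VI chains, Col12a1, Col14a1 and Eln) the old PBS libraries stood in the order of the new muscle fibre markers given above, with old PBS 3 highest and old PBS 4 lowest. No share over all genes is given for that order. Endothelial markers shared it, at 508, 481 and 354 CPM in old PBS 3, 2 and 4. Other lists ran the reverse way, such as mature fibre markers at 74704, 124042 and 136652 CPM. The part of any of these cells was not tested.

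Eln (ENSMUSG00000029675, elastin; chr5:134702593-134747323, minus strand) stood at 66.5, 79.8 and 80.0 CPM in young PBS, 46.8, 113 and 26.9 CPM in old PBS and 152, 93.8 and 71.5 CPM in old rMETRNL. The young libraries were tight, and old PBS 3 lay above all of them while old PBS 2 and 4 lay below. The log2 fold change was -0.28 ± 0.44 for age (edgeR, adjusted p = 0.994), 0.76 ± 0.48 for the protein (adjusted p = 0.721) and 0.49 ± 0.22 for old rMETRNL against young PBS (adjusted p = 0.9996). Without old PBS 4 the age difference turned to 0.086.

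Mfap5 (ENSMUSG00000030116; chr6:122505845-122529290, plus strand) had the smallest spread relative to its mean in each group. It stood at 94.5, 78.1 and 83.8 CPM in young PBS, 55.8, 75.7 and 68.5 CPM in old PBS and 118, 110 and 96.5 CPM in old rMETRNL. The 3 groups did not overlap at all, with old PBS lowest and old rMETRNL highest. Old rMETRNL against old PBS gave 0.70 ± 0.18 (edgeR, adjusted p = 0.271), and DESeq2 called it (adjusted p = 0.0415). Age gave -0.36 ± 0.17 (edgeR, adjusted p = 0.900) and old rMETRNL against young PBS gave 0.34 ± 0.12 (adjusted p = 0.9996). Fbln1 (ENSMUSG00000006369; chr15:85205949-85286535, plus strand) stood at 16.8, 24.7 and 17.5 CPM in young PBS, 13.8, 28.1 and 17.8 CPM in old PBS and 33.4, 25.8 and 21.3 CPM in old rMETRNL. It was the only 1 of the 10 genes whose mean was not lower with age, at 0.02 ± 0.28 (adjusted p = 0.998), and that sign turned without old PBS 3, where the value was -0.32. The protein gave 0.42 ± 0.28 (adjusted p = 0.728), and old rMETRNL against young PBS gave 0.44 ± 0.19 (adjusted p = 0.9996).

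**Figure D2:**
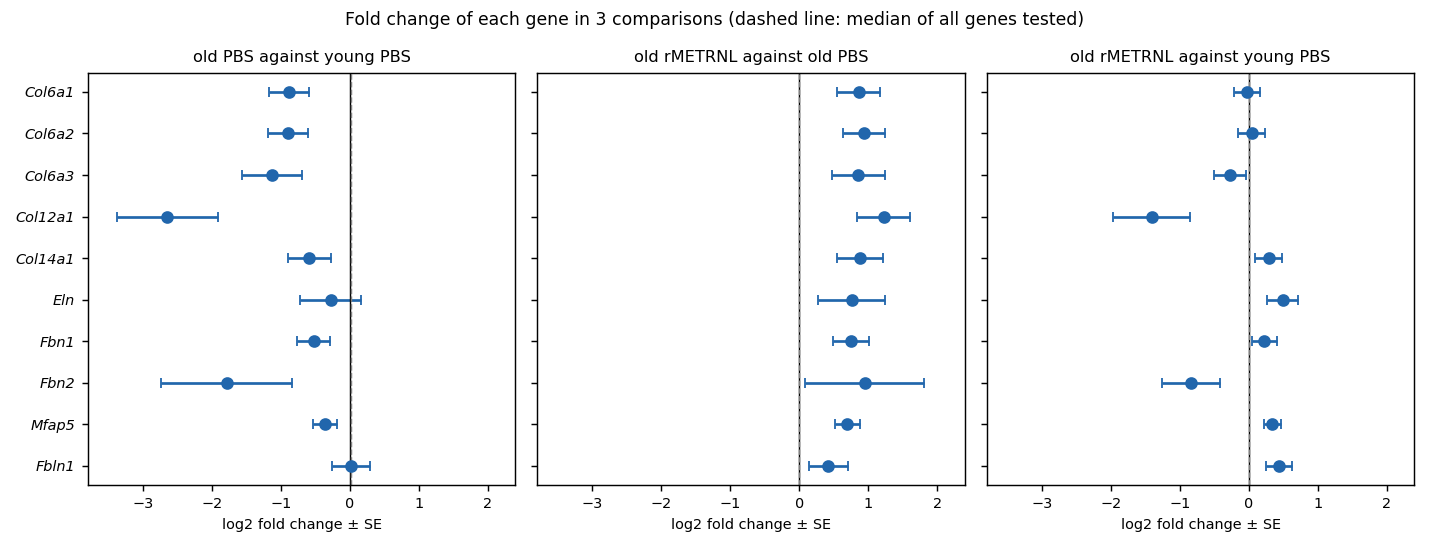
Log2 fold change (horizontal axis) with its SE for each gene in the 3 comparisons, by edgeR's quasi-likelihood test on the 6 libraries of each pair, with the median of all genes tested as a dashed line. Points run from -2.64 to 0.02 for old PBS against young PBS, from 0.42 to 1.22 for old rMETRNL against old PBS and from -1.41 to 0.49 for old rMETRNL against young PBS.

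Counted over the 10 genes, the age comparison gave 9 lower and 1 higher. At an adjusted p of 0.05 edgeR, DESeq2 and limma called 0 of the 10. Over all genes, edgeR called 0.0643% of 15560 and limma 26 of 15560. DESeq2 called 265 of the 18738 genes to which it gave an adjusted p. An unadjusted p under 0.05 was found for 4 genes (Col6a1, Col6a2, Col6a3, Col12a1), as had 5.91% of all genes, and in 5 (Col6a1, Col6a2, Col6a3, Fbn1, Mfap5) every old PBS library lay below every young PBS library, as in 5.25% of all genes. Without old PBS 3, edgeR called Col6a1 (-1.20, adjusted p = 0.0386) and Col6a2 (-1.19, adjusted p = 0.0436) lower in old PBS, beside 2.52% of all genes. Leaving out any other library gave 0 calls among the 10. With no filter on low counts Col12a1 was called, beside 1.23% of all genes.

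For old rMETRNL against old PBS all 10 genes were higher. edgeR and limma called 0 of the 10, where edgeR called 0.108% of 15682 genes and limma 35 of 15682. DESeq2 called Col12a1 and Mfap5, beside 1.84% of the genes to which it gave an adjusted p. An unadjusted p under 0.05 was reached by 6 genes (Col6a1, Col6a2, Col12a1, Col14a1, Fbn1, Mfap5), as had 8.07% of all genes. In 4 (Col6a2, Col12a1, Fbn1, Mfap5) every old rMETRNL library lay above every old PBS library, as in 6.99% of all genes. Leaving out any library but old PBS 3 gave 0 calls among the 10. The count of calls turned on old PBS 3. Without it edgeR called 8 of the 10 higher in old rMETRNL, all but Fbn1 and Fbln1, beside 9.76% of all genes, and the values of those 8 ran from 0.80 for Mfap5 to 3.06 for Fbn2, whose remaining old PBS libraries held 20 and 3 counts. With no filter on low counts 4 were called (Col6a1, Col6a2, Col12a1, Col14a1), beside 2.55% of all genes.

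Against young PBS, old rMETRNL muscle had 6 of the genes higher and 4 lower. edgeR called 0% of 15396 genes and none of the 10, and DESeq2 and limma called 0 genes in all. The 3 genes with an unadjusted p under 0.05, a level reached by 2.41% of all genes, pointed both ways: Col12a1 was lower, and Mfap5 and Fbln1 were higher. In Mfap5 every old rMETRNL library lay above every young PBS library, as in 3.94% of all genes. With no filter on low counts Col12a1 and Fbn2 were called lower, beside 0.467% of all genes. The age comparison shares its old PBS libraries with that of the protein and its young PBS libraries with that of old rMETRNL against young PBS, so they are not independent of each other.

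**Figure D3:**
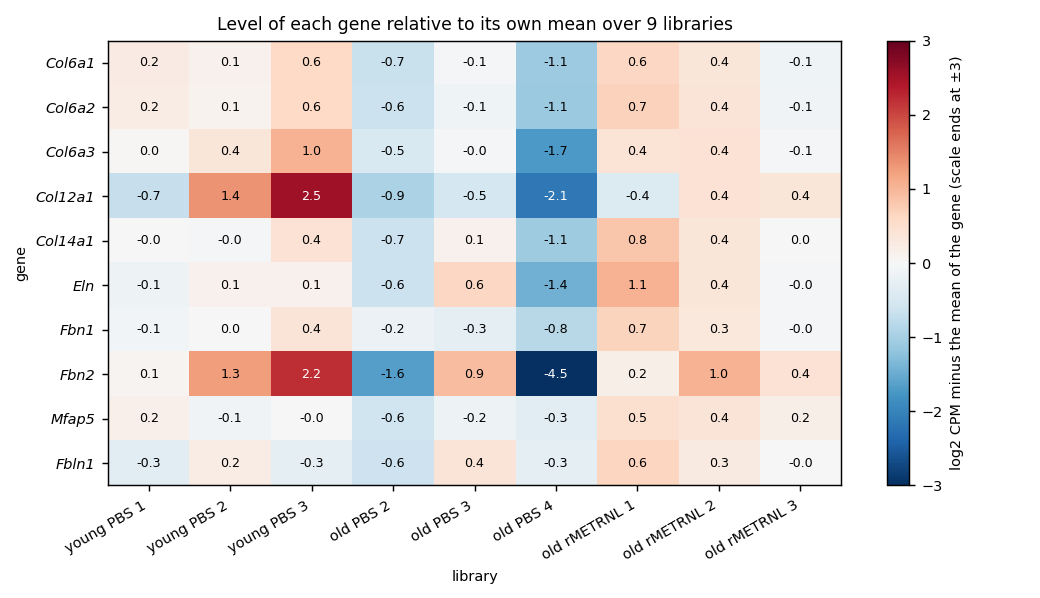
Log2 CPM of each gene (rows) in each library (columns) minus the mean of that gene over the 9 libraries, with the colour scale ending at 3 either way. The old PBS 2 and old PBS 4 columns are negative for all 10 genes, old PBS 3 is mixed, and the widest rows are Fbn2 and Col12a1.

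Ratios between related genes within a library do not depend on how libraries are scaled. The Col12a1 to Col14a1 ratio was 23.97%, 102% and 166% in young PBS, 31.5%, 24.5% and 18.4% in old PBS and 16.4%, 40.5% and 49.2% in old rMETRNL. The ratio spanned a wide range among the young libraries and stayed under 50% in all 6 old ones. These are ratios of raw counts, and the exons of Col12a1 are longer (11511 against 5679 bases), so per kilobase Col12a1 lay below Col14a1 in every library, with 33.9 against 41.4 CPM per kb in young PBS 3. The Fbn2 to Fbn1 ratio was 1.42%, 3.04% and 4.504% in young PBS, 0.456%, 2.94% and 0.101% in old PBS and 0.901%, 2.11% and 1.74% in old rMETRNL. For old PBS 4, 3 counts of Fbn2 against 2956 of Fbn1 gave an exact 95% Poisson interval of 0.0209% to 0.297%, which covers counting error only. The Eln to Fbn1 ratio was 21.2%, 24.003% and 18.3% in young PBS, 15.9%, 41.4% and 14.5% in old PBS and 28.8%, 22.7% and 22.0% in old rMETRNL. Elastin was highest against fibrillin 1 in old PBS 3. The Col6a3 to Col6a1 ratio was 115% ± 26.2 (SD, n = 3) in young PBS, 95.01% ± 26.0 in old PBS and 100.1% ± 10.6 in old rMETRNL. Over the 4 ratios and 3 comparisons, 12 two-sided exact permutation tests gave p-values from 0.2 to 1 (adjusted 0.667 to 1), where 3 against 3 libraries cannot go below 0.1.

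**Figure D4:**
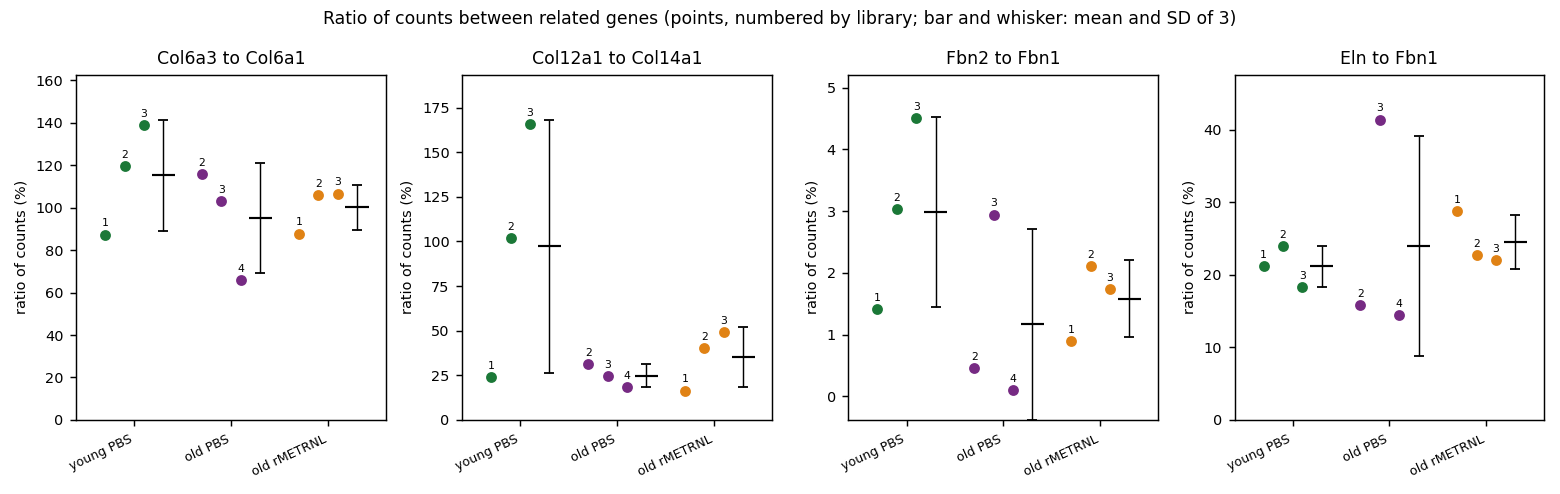
Ratio of counts in percent (vertical axis) for 4 pairs of genes, with 1 point per library and the mean and SD of each group of 3. Young PBS 2 and 3 stand above 100% for Col12a1 to Col14a1, and old PBS 3 stands at 41.4% for Eln to Fbn1.

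Per kilobase of exon in the consensus coding transcripts, which allows levels of different genes to be compared, Col6a1 ranked first in all 3 groups, at 135 ± 23.1 CPM per kb in young PBS, 73.4 ± 26.5 in old PBS and 133 ± 33.1 in old rMETRNL (SD, n = 3). Col6a2 (80.1 ± 14.8 in young PBS), Col6a3 (72.3 ± 26.9) and Mfap5 (56.8 ± 5.52) followed. Col6a1 lay above the next gene by more than either SD in each group. In young PBS and old rMETRNL that gene was Col6a2, whose raw counts were 0.838 to 0.925 of those of Col6a1. Much of that gap therefore rests on the exon lengths used, 4100 bases for Col6a1 and 6008 for Col6a2. In young PBS the steps from Col6a2 to Col6a3 and from Col6a3 to Mfap5 were within the larger SD, whereas Mfap5 lay above Col14a1, the next gene, by more than either SD. In old PBS Mfap5 (44.3 ± 6.70) stood just above Col6a2 (43.0 ± 14.6), well within both SDs. Each SD is that of 1 gene between libraries, so it does not measure the spread of a step between genes of the same library. Col14a1 (33.8 ± 6.62 in young PBS), Fbn1 (30.1 ± 5.52), Eln (19.6 ± 2.002) and Col12a1 (17.5 ± 15.3) lay in the middle. Fbln1 (4.80 ± 1.07) and Fbn2 (1.03 ± 0.697) were lowest in young PBS, and Fbn2 was last in every group. With the length of all annotated exons in place of coding transcripts, Mfap5 moved to rank 5 or 6, since its annotated exons are 3589 bases long against 1506.

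Fibro-adipogenic progenitors, the main source of matrix in injured muscle, were followed through 14 marker genes, all detected in every library. Their summed level was 1937 to 2489 CPM in young PBS, 1641 to 2729 CPM in old PBS and 2290 to 3060 CPM in old rMETRNL. For old PBS against young PBS 10 markers were lower and 4 higher, 2 of them lower at an unadjusted p under 0.05. For old rMETRNL against old PBS 12 were higher and 2 lower, 6 of them higher at an unadjusted p under 0.05, a level that 5.91% of all genes reached for age and 8.07% for the protein. edgeR called none of the 14 in either comparison, and DESeq2 called only Dpt, which was above old PBS in old rMETRNL. Levels were also expressed relative to the mean log2 CPM of these markers in the same library. On that measure 9 of the 10 genes still lay lower with age, with a median difference of -0.57 in place of -0.80 for the level itself. Fbln1 turned from -0.025 in mean log2 CPM to 0.20 relative to the markers. All 10 still lay higher with the protein, with a median of 0.53 in place of 0.94. These are descriptions without a test, and the part of the number of such cells in the differences was not tested. In old PBS 4 the markers summed to 2729 CPM, the highest of the 3 old PBS libraries, where 8 of the 10 genes were lowest. The mean log2 CPM of the markers was also highest there, at 6.50 against 6.22 and 6.10 in old PBS 2 and 3. Single markers differed. Pdgfra was at 77.6, 77.3 and 66.8 CPM in old PBS 2, 3 and 4, and Pi16 at 84.5, 84.9 and 131 CPM.

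Markers of other cells moved with the 10 genes to differing degrees. Of 10 macrophage markers, all were lower for age and all higher for the protein, and of 10 endothelial markers 9 were lower and 9 higher. Smooth muscle and pericyte markers (5 of 9 lower for age, 6 of 10 higher for the protein), adipocyte markers (2 of 9 and 2 of 9), nerve and Schwann cell markers (3 of 10 and 4 of 10), and mature and new muscle fibre markers (3 of 10 and 3 of 10 for each list) did not share that pattern. edgeR called none of these. Brain markers ran the other way, 9 of 9 higher with age, with Mobp, Gfap and Slc1a2 called, and 9 of 9 lower with the protein, with Snap25 called too. The 5 blood markers summed to 51.7 to 191 CPM in young PBS, 128 to 981 CPM in old PBS and 61.2 to 843 CPM in old rMETRNL. Keratinocyte markers summed to 128 CPM in young PBS 2 and to at most 5.66 CPM elsewhere, and 7 of the 8 were at 0 in some library. The part of these cells in the levels of the 10 genes was not tested.

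Other chains of collagen VI, other FACIT collagens and receptors of collagen VI formed a list of 13 genes, of which 11, 12 and 10 were tested in the 3 comparisons. Col6a4 was too low for any test, Col9a3 could be tested only for old rMETRNL against old PBS, and Col9a2 could not be tested for old rMETRNL against young PBS. For age 9 were lower and 2 higher, 3 of them lower at an unadjusted p under 0.05, with a median of -0.31. For the protein 9 were higher and 3 lower, 3 of them higher at an unadjusted p under 0.05, with a median of 0.26. Between old rMETRNL and young PBS 7 were higher and 3 lower, with a median of 0.02. edgeR called none in any comparison, and DESeq2 called only Col6a6, for the protein. Col6a6, which encodes the alpha6 chain that can take the place of alpha3, was at 42.8 ± 9.61 CPM in young PBS, 26.2 ± 8.16 in old PBS and 54.8 ± 18.9 in old rMETRNL (SD, n = 3), with a log2 fold change of 1.06 ± 0.30 for the protein (edgeR adjusted p = 0.329, DESeq2 adjusted p = 0.0417). Antxr1, a receptor that binds collagen VI, gave -0.68 ± 0.23 for age (edgeR adjusted p = 0.655) and 0.69 ± 0.20 for the protein (adjusted p = 0.378), with old PBS below both other groups in every library. Its relative Antxr2 gave -0.25 ± 0.18 and 0.28 ± 0.19. Col6a5 stood at 3.19 ± 1.35 CPM in old PBS and 6.64 ± 2.01 in old rMETRNL. Col16a1 gave -1.27 ± 0.52 and 0.80 ± 0.42, and Col19a1 gave 0.42 ± 0.70 and -1.07 ± 0.59, the opposite direction of the means, with overlapping libraries.

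Elastic fibre assembly was followed through 30 further genes, all tested. For age 26 were lower and 4 higher, 5 of them lower at an unadjusted p under 0.05, with a median of -0.39. For the protein 24 were higher and 6 lower, 7 of them higher at an unadjusted p under 0.05, with a median of 0.48. Between old rMETRNL and young PBS 19 were higher and 11 lower, with a median of 0.11. edgeR called none of them, and DESeq2 called only Loxl2, for the protein. Loxl2, a lysyl oxidase that cross-links collagen and elastin, stood at 60.2 ± 9.43 CPM in young PBS, 38.3 ± 4.15 in old PBS and 68.1 ± 14.9 in old rMETRNL (SD, n = 3), and gave 0.83 ± 0.19 for the protein (edgeR adjusted p = 0.191, DESeq2 adjusted p = 0.0246). Old PBS lay below both other groups in every library. Without old PBS 3 edgeR called 10 of the 30 for the protein (Fbln7, Mfap2, Mfap4, Emilin1, Lox, Loxl2, Loxl3, Adamts10, Fn1, Vcan) and 4 for age (Mfap2, Mfap4, Emilin1, Adamts10), where 9.76% and 2.52% of all genes were called. Fbln7 gave 0.78 ± 0.20 (adjusted p = 0.269), Emilin2, a glycoprotein of elastic fibres, 0.73 ± 0.21 (adjusted p = 0.343), and Ltbp4, which binds latent TGF-beta and guides elastin assembly, 0.57 ± 0.20 (adjusted p = 0.482). Fn1, the fibronectin on which fibrillin is assembled, gave -0.89 ± 0.36 for age and 0.78 ± 0.27 for the protein (adjusted p = 0.788 and 0.485).

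Genes most like 4 of the 10 were sought among 9218 genes outside the 10 with a mean of at least 10 CPM, by the smallest root mean square difference of centred log2 CPM over the 9 libraries. Col6a1 was closest to Serpinh1, a chaperone of procollagen (0.10), then to Col5a3 (0.10) and Col4a2 (0.11), where the median over the genes compared was 0.57. Col14a1 was closest to Stab1 (0.11), Lrrc17 (0.12) and Serpinh1 (0.12). Fbn1 was closest to Ptgfrn (0.11), the laminin chain gene Lamb1 (0.12) and Atp8b2 (0.12). Eln had no neighbour as close: Tifab, Adamts20 and Asap3 were at 0.23 to 0.25. Among the 10 genes themselves, Fbn2 was the farthest from 8 of the others.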

How the data were processed

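Bulk RNA was sequenced paired-end from 9 libraries made with the NEBNext Ultra kit. The authors deposited raw counts of reads per Ensembl gene, not normalized, with replicates kept apart. The submitters' processing notes name STAR, featureCounts and the build mm9, without versions, and the study's methods name DESeq2. The strand setting is not given in the sources used here. The table holds no coordinates. Those printed are of GRCm38 (GENCODE M21), which holds 99.9% of the identifiers, and upstream sequences are RefSeq's.

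Pairs of groups were fitted on their 6 libraries with edgeR 4.0.16 (R 4.3.3): filterByExpr, TMM, glmQLFit and glmQLFTest, two-sided, with Benjamini-Hochberg adjustment over all genes tested and a threshold of 0.05. Log2 CPM used a prior count of 2. DESeq2 1.42.0 and limma-trend (limma 3.58.1), other filters and scalings, a fit of all libraries, a replicate block and each library left out were alternatives. Ratios were tested by exact permutation. The fits were tested on counts simulated for old rMETRNL against young PBS only, so not with the spread of the old PBS libraries.

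The genes and lists were chosen with earlier results of these data known. Named relatives and assembly genes are those called, or of the 5 lowest p-values of their list, for age or for the protein. Further lists were tendon, fibro-adipogenic, new and mature muscle fibre, brain, blood, nerve and Schwann cell, adipocyte, macrophage, endothelium, smooth muscle and keratinocyte markers.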

Additional observations from a re-analysis of the deposited data

How the results depend on the processing

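The labels give groups the same numbers, but libraries with the same number did not deviate together in all pairs (correlations -0.32 to 0.41), so they were not taken as paired. With the number as a replicate block, 1 of the 10 genes was called for age (Col12a1, edgeR adjusted p = 0.0359, beside 11 of 15560 genes) and none elsewhere. The block moved the median of the 10 genes for the protein from 0.86 to 0.46, and Eln from 0.76 to 0.16. In that fit only the numbers 2 and 3 occur in both groups. Of other settings, no filter on low counts called 1 for age, 4 for the protein and 2 for old rMETRNL against young PBS, and DESeq2's Wald test called 2 for the protein. Leaving out 1 library gave 0 to 2 calls for age and 0 to 8 for the protein, the upper values both without old PBS 3, and 0 for old rMETRNL against young PBS. A filter of 10 counts in every library removed Fbn2 from the comparisons with old PBS.

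All 10 log2 fold changes for the protein kept their sign in every setting run. For age, Fbln1 turned to -0.027 with limma-trend, to -0.063 with the replicate block and ranged from -0.32 to 0.22 with 1 library left out, and Eln ranged from -1.04 to 0.086. For old rMETRNL against young PBS, Col6a1 turned to 0.024 with library totals without TMM factors, an alternative chosen after seeing the data, and ranged from -0.20 to 0.16 with 1 library left out, Col6a2 from -0.15 to 0.23 and Col6a3 from -0.48 to 0.064. With 1 library left out, the difference in mean log2 ratio for Col6a3 to Col6a1 ranged from -0.13 to 0.27 for the protein, and that for Eln to Fbn1 from -0.47 to 0.29 for age and from -0.076 to 0.68 for the protein. Levels without TMM factors moved by less than 1 SD in 30 of 30 gene and group means. The cause of these turns was not tested.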
